A study of Mus musculus with 2 samples.

Results

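In 266.6 cells, a mouse pancreatic line, 757 stretches of chromosomes 1 to 19 each carried 5 or more listed Ptf1a sites with no spacing over 12.5 kb. These dense groups held 5480 of the 30127 sites used (18.2%). The other sites fell into 5201 groups of 2 to 4 sites (12743 sites) and 11904 single sites. Groups were found by taking the authors' listed positions, leaving out 200 with over 1000 input reads within 5 kb, and joining neighbours at most 12.5 kb apart. They were ranked by the ChIP reads of the whole stretch minus its input reads, the input first multiplied by 0.971. That factor, called scaling below, is the number of ChIP reads per input read outside all listed spans. The groups were thus chosen by listed position and ordered by ChIP reads, so their number, rank and excess are descriptions with no test.

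The transcription factor Ptf1a belongs to the basic helix-loop-helix family and pairs with an E protein and with Rbpj or its relative Rbpjl to form the PTF1 complex. The complex binds an E-box set near a second short motif. It is needed for the pancreas to form and, later, for acinar cells to make digestive enzymes. Stretches with many bound sites close together are often studied as clusters of enhancers, and the distance used here is a common setting for joining them.

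The data were 1 chromatin immunoprecipitation (ChIP) library made with an antibody to Ptf1a, 1 library of input chromatin with no antibody, and the authors' list of 30691 Ptf1a sites. Both libraries came from 266.6 cells at passage 26, of strain C57BL/6 X SJL. The line was derived from a mouse acinar tumour, and the labels describe its expressed genes as close to those of the early dorsal pancreas. Cells were fixed with 1% formaldehyde for 10 min, and the ChIP library combined DNA of 2 immunoprecipitations. The ChIP library held 28502488 placed reads and the input library 27959618. Neither had a replicate, so every contrast is between these 2 libraries. Intervals are exact 95% intervals that cover counting error alone, and amplified reads without molecular identifiers make them too narrow. The listed height of a site is the authors' own value, on a scale not given in the sources used here, and ran from 20 to 384 in the dense groups. Coordinates are of build mm9. Genes were not assigned to the groups and no sequence is shown, because the gene tables and sequences used here belong to another build.

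Most dense groups were small. Exactly 5 sites were found in 294 groups, just inside the rule, and 551 groups with 4 sites lay just outside it. The median excess of ChIP reads was 482 in groups of 5 and 327 in groups of 4. Another 342 groups had 6 to 9 sites, 83 had 10 to 14 and 38 had 15 or more, with 26 the highest number. Stretches ran from 1.67 to 96.9 kb, with a median of 21.3 kb and quartiles of 14.3 and 29.6 kb. In 59 groups the widest spacing lay over 12 kb, just under the limit. At the other side of the limit, 28 breaks beside a dense group measured up to 13 kb, and 2 of these parted a pair of dense groups. All stretches summed to 17.7 Mb.

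Over these stretches ChIP reads stood above input. The 757 stretches held 3.79% of ChIP reads and 1.51% of input reads, a ratio to scaled input of 2.63 (2.62 to 2.64). The ratio of single groups had a median of 2.54, with quartiles of 1.94 and 3.65. At least 2 times the scaled input was reached by 544 of the 757 groups (71.9%), beside 69.8% of all 5958 groups of 2 or more sites. The rule used this contrast, and long gaps lower a ratio over a whole stretch, so nothing is read from the shares.

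The excess of ChIP reads fell smoothly along the ranked groups, with a steep head. It ran from 5550 reads in the first group to 678 in the middle one and -481 in the last. The 10 leading groups held 6.33% of the total excess, the leading 76 held 29.1%, and 171 groups (22.6%) held 50% of it. The lowest excess among the 10 leading groups was 3473 reads.

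**Figure D1:**
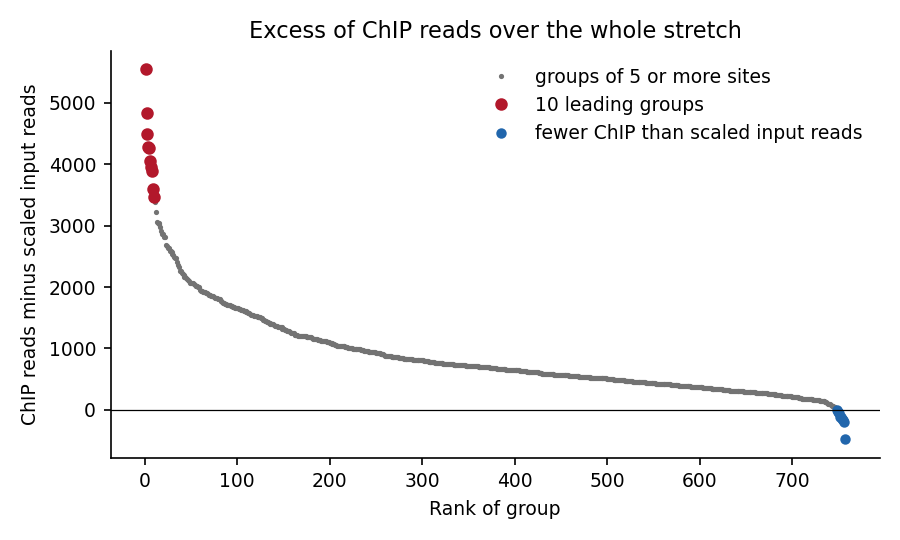
Each point is 1 of the 757 dense groups, ordered by rank (horizontal axis), with the ChIP reads minus scaled input reads of its whole stretch (vertical axis). The 10 leading groups lie between 3473 and 5550 reads, and the 9 groups below 0 lie at the end of the order.

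The first group lay on chromosome 11 from 74277864 to 74369766, with 25 sites in 91.9 kb. It held 8159 ChIP and 2687 input reads, 3.13 times the scaled input (2.99 to 3.27). No single site led it. Its highest counts within 100 bp of a position were 446, 438, 375, 346, 326 and 318 ChIP reads, beside 9, 6, 6, 13, 10 and 3 input reads. These 6 sites lay at 66.97, 23.90, 60.22, 72.04, 23.64 and 25.02 kb from the first site. The strongest, at 74344829, held 11.5% (10.5 to 12.5%) of the reads at the group's sites, and 6 sites were needed to reach 50%. At the other end, 10 of its sites had between 23 and 49 ChIP reads. Between its sites at 72.04 and 82.93 kb, part of the stretch held no reads of either library, so its length is in part not measured.

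The second group had most of its reads at its sixth and ninth sites. It lay on chromosome 5 from 30877367 to 30896842, where 9 sites spanned 19.5 kb. Over this stretch 5478 ChIP and 665 input reads were counted, a ratio of 8.48 (7.83 to 9.21). Its sites held, in order along the chromosome, 137, 93, 32, 25, 69, 2127, 63, 450 and 1205 ChIP reads within 100 bp. Input reads at the same sites numbered 3, 13, 17, 12, 15, 11, 3, 5 and 15. The sixth site, at 30894770 and of height 383, thus held 50.6% (49.1 to 52.2%) of the site reads, and the ninth, at 30896743, was next. Counted once per position and strand, these 2 sites had 387 and 362 reads. Such counts cannot exceed the number of positions and strands in the window, and both lay near that ceiling. They therefore do not tell how much of the difference between the sites was repeated reads.

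The third group, on chromosome 5 from 36454344 to 36512871, had 23 sites in 58.5 kb and a ratio of 2.96 (2.83 to 3.10). Its sites at 36463885 and 36465947 held 905 and 695 ChIP reads, against 10 input reads at each. The fourth, on chromosome 9 from 70665418 to 70745586, had 17 sites in 80.2 kb and a ratio of 2.95 (2.81 to 3.10). Of its site reads 34.9% lay at 70737069, where 1295 ChIP and 5 input reads were counted. The fifth, on chromosome 1 from 195208233 to 195275564, had 22 sites in 67.3 kb and a ratio of 2.86 (2.73 to 3.0). There the site with the most reads, 797 at 195233947, had a listed height of 128, while the site of height 300 at 195223537 had 707. These 3 groups had a few strong sites each among many weak ones. The map of reads along the 4 leading groups shows this for the third and the fourth.

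**Figure D2:**
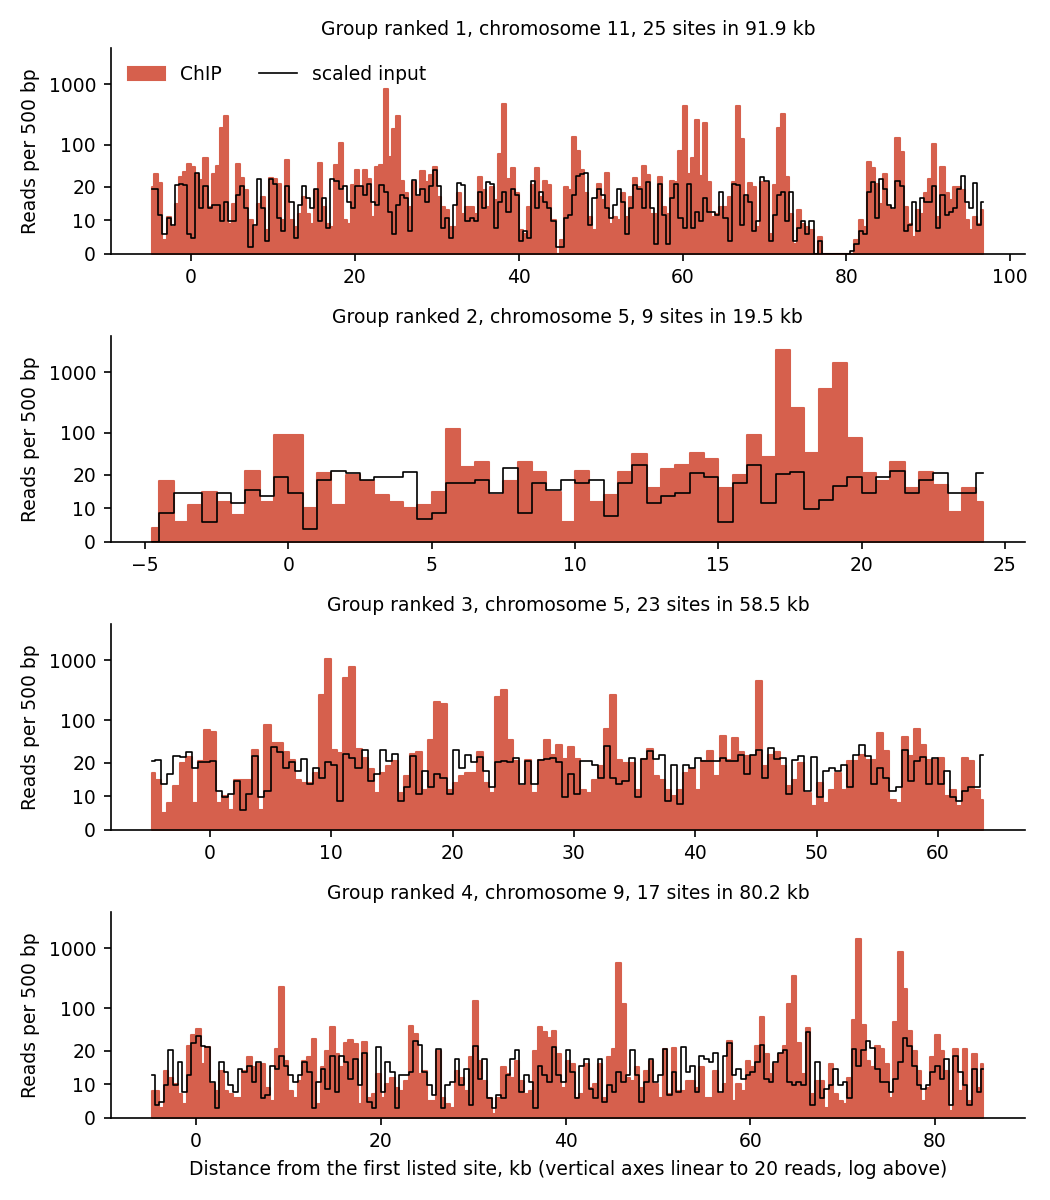
ChIP reads (filled) and scaled input reads (line) in steps of 500 bp along the groups ranked 1 to 4, by distance from the first listed site in kb, with vertical axes linear to 20 reads and logarithmic above. ChIP reads rise in narrow columns at the stronger of the 25, 9, 23 and 17 sites, while several weak sites lie near the input line, as do the spaces between sites.

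Weight was shared differently in the next groups. The sixth, on chromosome 15 from 84253336 to 84297601 (16 sites, ratio 3.65), was led by 1 site at 84272380, with 2378 ChIP and 10 input reads. That site held 63.8% (62.2 to 65.3%) of the site reads, and the second site of the group had 263. The seventh was the reverse. On chromosome 4 from 115513975 to 115537990 it had 12 sites in 24.0 kb and a ratio of 7.28 (6.71 to 7.92), and 8 of its 12 sites had heights of 100 or more. Its ChIP counts in order were 186, 856, 124, 523, 40, 428, 68, 36, 191, 164, 183 and 805, against 3 to 15 input reads. High counts stood at both ends and in the middle of that stretch.

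The eighth group, on chromosome 8 from 125161003 to 125223298, had 24 sites in 62.3 kb and a ratio of 3.66 (3.46 to 3.88). Its 4 strongest sites had 499, 461, 445 and 339 ChIP reads, against 8, 9, 4 and 4 input reads. The first 3 of these lay at 54.12, 40.16 and 50.03 kb from the first site, with weaker sites between them. The ninth and the tenth lay on chromosome 15, from 37346107 to 37389256 (13 sites, ratio 4.10, 3.85 to 4.37) and from 31183909 to 31229580 (19 sites, ratio 3.52, 3.32 to 3.74). They were led by single sites of 1177 and 1021 ChIP reads, which held 41.2% and 32.4% of the site reads. Over the 10 leading groups, 54 of 180 sites had heights of 100 or more and 58 had heights under 30. Input reads at these sites numbered 0 to 22. At 17 of the 180 sites the distinct ChIP reads within 100 bp numbered over 1.5 times the listed height.

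Other groups stood out by size. The most sites, 26 each, were found on chromosome 19 from 7164982 to 7261889 and on chromosome 15 from 73537028 to 73591690. The first of these was also the longest stretch, with 96.9 kb and a ratio of 1.99 (1.90 to 2.09). Its median height was 28, and 2 of its sites reached 100. The chromosome 15 group had a median spacing of 444 bp and a ratio of 2.22 (2.10 to 2.33). Long stretches also lay on chromosome 11 from 57767439 to 57853964 (86.5 kb, 17 sites, ratio 2.41) and on chromosome 2 from 26341512 to 26416003 (74.5 kb, 20 sites, ratio 2.20). The first of the pair had its strongest site, of 1091 ChIP and 11 input reads, at its very start. The group at the middle rank, on chromosome 11 from 58741863 to 58767450, had 5 sites in 25.6 kb with 31, 291, 96, 128 and 25 ChIP reads. Its ratio was 2.31 (2.09 to 2.57).

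One site usually carried much of a dense group, though in most groups not more than 50% of the site reads. The strongest site held a median of 40.6% of the ChIP reads within 100 bp of the group's sites, with quartiles of 31.5 and 51.6%. It held over 50% in 207 of the 757 groups (27.3%). The median share was 46.4% in groups of 5, 38.1% in groups of 6 to 9, 35.6% in groups of 10 to 14 and 22.5% in groups of 15 or more. A strongest site is picked for its reads, so its share lies above an equal share by construction. With 1 read per position and strand the median was 34.8%, but that count has a ceiling in each window, which lowers the share of strong sites. The most extreme group was on chromosome 2 from 26063207 to 26083573, chosen after its values were seen, where 1 of 5 sites held 94.2% of the site reads. The strongest site was the first or last of its group in 187 groups (24.7%), while the share of places that are first or last had a mean of 31.3% over the groups and was 27.6% of all places pooled.

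**Figure D3:**
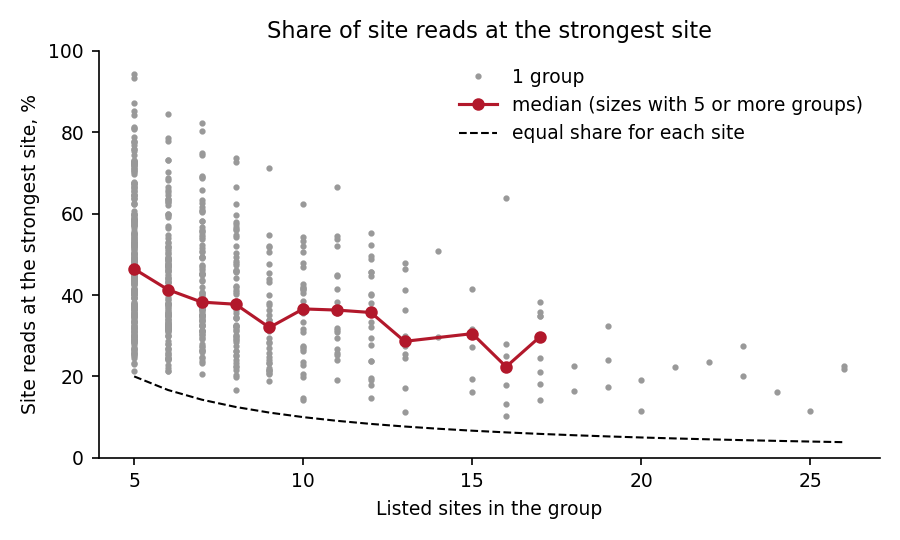
Percent of a group's site reads that lay at its strongest site (vertical axis), by the number of listed sites (horizontal axis), with 1 grey point per group, red points for medians and a dashed line for equal shares. Medians fall as groups grow, and points reach 94.2% in groups of 5 and 11.5% in the group of 25.

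Sites in dense groups lay at all spacings under the limit. The median of 4723 spacings was 2488 bp, against 3092.5 bp for 7542 spacings in groups of 2 to 4. Spacings of 200 to 599 bp made up 19.7% of those in dense groups and 18.1% of those in the smaller ones. Those of 600 to 999 bp made up 10.4% and 8.19%, and those from 10 kb up to the limit 7.43% and 10.8%. Dense groups are picked for short spacings, so this contrast is a description. In 524 of the 757 groups (69.2%) at least 1 spacing was under 600 bp. When sites within 600 bp of each other were counted as 1, 230 groups had under 5 places left and 2 had 1 place.

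The most crowded groups were all short. On chromosome 7, 6 sites lay within 1.82 kb, from 31242541 to 31244360, with 2223 ChIP and 33 input reads (ratio 69.4, 49.2 to 101.0). The sites had 38, 1532, 355, 61, 36 and 70 ChIP reads within 100 bp. Spacings there were 294 to 389 bp. Within 50 bp of the 6 positions 18, 1210, 243, 33, 24 and 48 ChIP reads were counted, and within 50 bp of the 5 midpoints 4, 58, 16, 14 and 2. Each midpoint thus had fewer reads than the sites on its left and right.

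The other crowded groups lay on chromosome 4 from 117501506 to 117503172 (5 sites in 1.67 kb, ratio 9.54) and from 9007131 to 9009388 (5 sites in 2.26 kb, ratio 11.1), on chromosome 15 from 93757456 to 93760299 (6 sites in 2.84 kb, ratio 13.9) and on chromosome 1 from 138755578 to 138758185 (5 sites in 2.61 kb, ratio 20.2). Over these 5 groups, 18 of 22 midpoints had fewer ChIP reads than either neighbouring site. The other 4 included the midpoint of the pair at 138756623 and 138756766 on chromosome 1, 143 bp apart, with 50 and 28 reads at the positions and 48 between them. The windows of that pair and its midpoint overlapped. Positions were listed from these same ChIP reads, so lower midpoints follow in part from the choice of positions. Nothing is read from their number in these 5 groups.

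Sites of dense groups were a little higher than single sites, mainly at the top of the range. Median heights were 37 in dense groups, 37 in groups of 2 to 4 and 34 at single sites. Heights of 200 or more were listed for 4.78% of sites in dense groups, 3.41% in groups of 2 to 4 and 1.90% of single sites. Heights of 100 or more made up 17.2%, 13.9% and 11.0%. Such a site was present in 529 of the 757 dense groups (69.9%). The mean excess within 100 bp was 102 reads per site in dense groups, 89.9 in groups of 2 to 4 and 76.9 at single sites. Dense groups, with 18.2% of the sites, thus held 21.4% of the excess at sites.

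Input reads moved in the same direction. The median number of input reads per kb within 5 kb of a site was 23.3 in dense groups, 17.5 in groups of 2 to 4 and 14.4 at single sites. It rose from 21.1 in groups of 5 to 29.0 in groups of 15 or more. From 20 to 50 kb beyond the stretches the medians were 18.8, 15.4 and 13.5 reads per kb. The part of this in the number and height of sites was not tested. Set against input, sites of dense groups stood lower. The median ratio within 100 bp, with 0.5 reads added to each count, was 9.13 in dense groups, 10.9 in groups of 2 to 4 and 11.7 at single sites. A ratio of 4 was reached by 81.1% of sites in dense groups and 90.1% of single sites, with 87.6% over all sites used. The list was made from these ChIP reads, and nothing is read from the shares.

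Heights differed little with the position of a site in its dense group. First and last sites had a median height of 35 and sites inside 37. Sites whose nearest neighbour was under 600 bp away had a median of 38, and those with none within 5 kb had 37. The largest groups were not made of higher sites. The median height was 35 in groups of 15 or more sites and 38 in groups of 5.

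With the scale used, the ChIP excess of dense groups lay close to the listed sites. The sites were listed from these same ChIP reads, so this split follows in part from the list. Unlisted piles between sites are described further below. Windows of 100 bp to each side of the sites held 559673 excess reads, a number equal to 83.5% of the 670031 over the whole stretches. Windows of 250 bp held 674342, or 100.6%, and those of 1 kb held 726381, or 108.4%. Windows of the first and last site reach past the ends of a stretch. These percentages, also that at 100 bp, are therefore not strict parts of the whole and can pass 100%. The first group was less sharp. Beside its excess of 5550 reads, windows of 250 bp around its 25 sites held 4403 and windows of 1 kb held 5435.

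Away from sites, ChIP reads in dense groups stood close to scaled input. The scale was itself taken outside the listed spans, so a ratio near 1 there is largely set by it. Pile reads that reach past the spans are also part of the scale. Only contrasts between places are therefore read below. In 200 bp bins between the first and last site of a group, at least 1 kb from every listed position, 214216 ChIP and 223568 input reads were counted. The ratio was 0.987 (0.981 to 0.993). Beside single sites, from 1 kb out to 6.25 kb, it was 0.936 (0.934 to 0.938). It was 0.966 (0.959 to 0.973) in the same range outside the ends of dense groups and 0.975 (0.970 to 0.979) between sites of groups of 2 to 4. These intervals cover counting error alone, not variation between groups, and do not overlap except for those of the last 2 values. These differences are small beside the sites themselves, whose median ratio in dense groups was 9.13.

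The ratio fell with distance from the nearest site, though not at every step. In dense groups it was 1.02 (1.01 to 1.03) at 1 to 2 kb from the nearest site, 0.987 at 2 to 3 kb, 0.963 at 3 to 4 kb and 0.931 at 4 to 5 kb. It was 0.947 (0.919 to 0.977) from 5 kb to 6.25 kb. Beside single sites the values were 0.977, 0.939, 0.929, 0.920 and 0.919. A bin between sites has listed sites on each side and a bin beside a single site has 1, so equal distance does not mean equal surroundings. When single sites were weighted to the heights in dense groups, their ratio was 0.940.

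**Figure D4:**
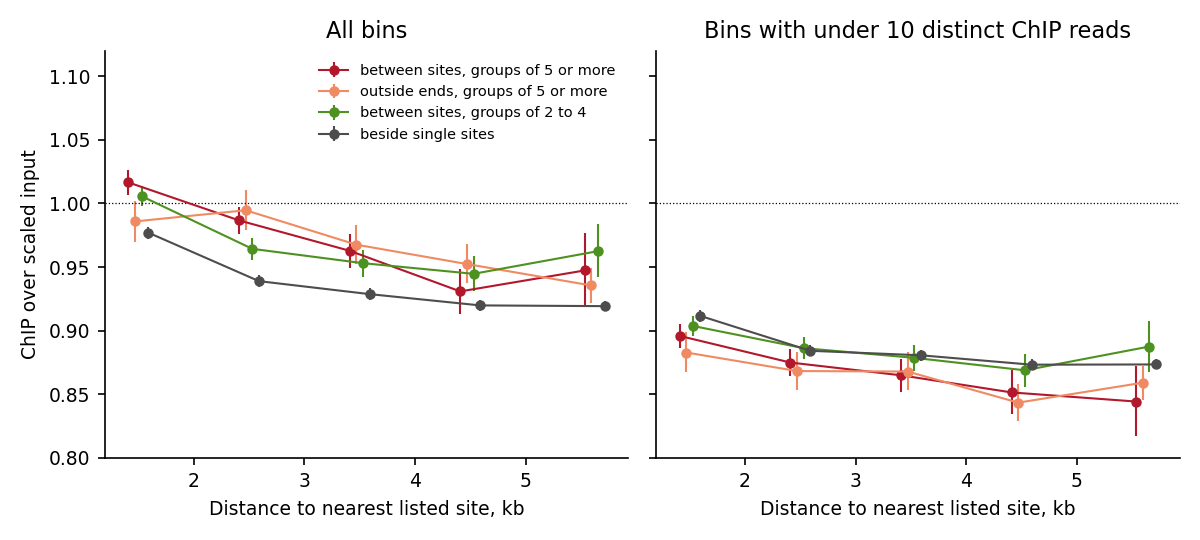
Ratio of ChIP to scaled input in 200 bp bins (vertical axes) by distance to the nearest listed site in kb, with exact 95% intervals, for all bins (left) and for bins with under 10 distinct ChIP reads (right). On the left the spaces in dense groups run from 1.02 to 0.931 and the flanks of single sites from 0.977 to 0.919, and on the right the dense groups lie lower at each distance.

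Single spaces varied more than these pooled ratios differ. Of 1775 spaces in dense groups with at least 2 kb of bins, 99 (5.58%) reached 1.5 times the scaled input, beside 5.8% of all 5003 such spaces and 4.26% of the 23762 flanks of single sites. Their median ratio was 0.966, with quartiles of 0.836 and 1.14. The flanks had a median of 0.921 and quartiles of 0.790 and 1.09. At 1.5 times lower lay 90 of the spaces (5.07%) and 7.39% of the flanks. The median space held 105 input reads and the median flank 71, so counting noise is wider in the flanks. The share of spaces called in dense groups was thus near the background.

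At like levels of regional input, spaces in dense groups differed more from the flanks of single sites, except in the lowest classes of input. Sorting by input reads 20 to 50 kb away, which are not among the reads compared, the ratio was 1.01 (0.961 to 1.06) in dense groups and 1.01 (1.00 to 1.02) beside single sites at under 10 input reads per kb. At 14 to 16 reads per kb it was 1.05 (1.03 to 1.07) against 0.933 (0.929 to 0.938). At 20 or more it was 0.959 (0.951 to 0.966) against 0.885 (0.880 to 0.889). From 10 reads per kb upward, each of the 6 classes had a higher ratio in dense groups, with intervals that did not overlap. Those intervals cover counting error alone and not the variation between groups. Weighted to the regional input of dense groups, an alternative chosen after seeing the data, single sites had a ratio of 0.904. Beside single sites the ratio fell from class to class as input rose.

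**Figure D5:**
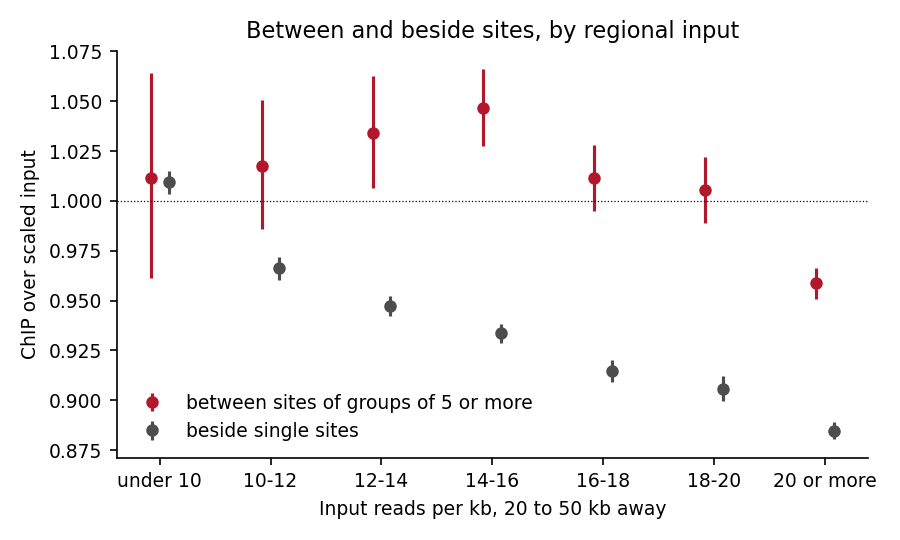
Ratio of ChIP to scaled input between sites of dense groups (red) and beside single sites (grey), in 7 classes of input reads per kb counted 20 to 50 kb away, with exact 95% intervals. The 2 sets meet at 1.01 under 10 reads per kb and stand apart from 10 reads per kb upward.

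Part of the ChIP reads between sites lay in unlisted bins of high ChIP count, called piles here. Bins with 10 or more distinct ChIP reads and at least 4 times the scaled input, a definition chosen after seeing the data, made up 0.963% of bins between sites of dense groups (491 of 50992). They made up 0.401% beside single sites and 0.773% outside the ends of dense groups. With the libraries exchanged, the shares were 0.649%, 0.340% and 0.621%, so input reads alone reach such piles in an order like that of the ChIP reads. The excess in the ChIP piles of dense groups was 9068 reads, in 291 of the 739 groups with such bins. Without them the ratio was 0.945 (0.939 to 0.95) between sites of dense groups and 0.907 (0.906 to 0.909) beside single sites. Such bins are picked for high ChIP reads, so leaving them out lowers a ratio by construction, and nothing is read from the fall. When every bin with 10 or more distinct ChIP reads was left out, whatever its input, the order of the ratios turned. They were 0.877 (0.872 to 0.883) in dense groups and 0.884 (0.882 to 0.886) beside single sites, with intervals that overlapped. Here too bins were taken out for their ChIP reads. That setting removed 5.55% of bins in dense groups and 1.40% beside single sites. Input reads alone reached 10 distinct reads in 6.89% and 2.06% of the same bins. Within classes of regional input this setting gave dense groups the higher ratio from 10 reads per kb upward, but intervals overlapped in the lower classes. At 10 to 12 reads per kb the ratios were 0.956 (0.924 to 0.989) and 0.922 (0.916 to 0.927), and at 12 to 14 they were 0.925 (0.899 to 0.953) and 0.903 (0.898 to 0.908). At 14 to 16 reads per kb they were 0.919 (0.901 to 0.937) against 0.883 (0.879 to 0.888), and at 20 or more 0.845 against 0.816. Under 10 reads per kb they were 0.954 (0.905 to 1.0) and 0.960 (0.954 to 0.966).

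The share of nearby excess reads that lay close to a site was slightly lower in dense groups. This was measured at sites with no listed neighbour within 2 kb, within classes of like height. Of the excess within 1 kb, 77.2% lay within 100 bp at 228 sites of dense groups with heights of 100 to 199, against 80.5% at 1085 single sites. At heights of 200 or more the shares were 78.0% (66 sites) and 81.1% (226 sites), and at 20 to 29 they were 75.5% and 77.9%. The share was lower in dense groups in each of the 5 height classes. No intervals were computed for these shares. Only listed neighbours were excluded, and unlisted piles took up 0.963% of bins between sites of dense groups and 0.773% outside their ends, against 0.401% beside single sites. Their part in the difference was not tested. Within 250 bp the share was 92.5% against 93.6% at heights of 100 to 199. At 200 to 300 bp from these sites ChIP reads stood at 95.3 per kb in dense groups and 72.6 per kb at single sites, beside 25.8 and 17.7 input reads per kb.

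A few groups showed no excess over input. In 9 of the 757 the stretch had fewer ChIP than scaled input reads, and in 6 the interval of the ratio lay below 1. The last group, on chromosome 1 from 90108588 to 90137529, had 10 sites with 26 to 45 ChIP reads and 18 to 52 input reads each. Its ratio was 0.818 (0.773 to 0.866). Before it came groups on chromosome 1 from 85247311 to 85278251 (8 sites, ratio 0.860) and from 90163083 to 90184685 (16 sites, ratio 0.90). The group on chromosome 8 from 19953389 to 19986259 had 17 sites and a ratio of 0.925, and that on chromosome 5 from 33069039 to 33080466 had 5 sites and a ratio of 0.792. No site in these 9 groups had a height of 100 or more, and the highest was 84. Their median input was 53.9 reads per kb, against 22.7 in the other dense groups. Stretches of 2 of the last groups, on chromosomes 1 and 8, also held 5 and 2 of the sites left out for their input reads.

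Dense groups were spread unevenly over the chromosomes. They held 30.3% of the sites used on chromosome 15, 27.2% on chromosome 5 and 23.8% on chromosome 8, but 5.24% on chromosome 3 and 6.71% on chromosome 13. Chromosomes 15, 11 and 5 had 0.766, 0.636 and 0.620 dense groups per Mb, and chromosomes 3 and 13 had 0.0794 and 0.0987. Input reads per Mb were 16564, 14631 and 16168 on the first 3 and 10723 and 8749 on the last 2, and their part in the difference was not tested. On chromosome 8 the share was high beside 10013 input reads per Mb. Some groups also lay near each other, though most did not. Of 738 successive pairs, 93 were within 50 kb and 150 within 100 kb, while the median distance was 758 kb. Within single Mb, 8 dense groups with 50 sites lay between 138 and 139 Mb of chromosome 4, 7 with 61 sites between 79 and 80 Mb of chromosome 10, and 7 with 65 sites between 84 and 85 Mb of chromosome 15. The last of these holds the group ranked sixth.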

How the data were processed

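Both libraries were deposited as read counts with no scaling, 1 line for each placed read, on build mm9 per the submitters' processing notes. Reads were 37 bp long, and repeats of a position and strand were 10.2% of ChIP and 3.29% of input reads. The authors also deposited 1 list of sites with a height score each, as spans of 100 bp per the file headers. Aligner and peak caller were not given in the sources used here.

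Read 5′ ends were moved 73 bp downstream, from a strand shift of 145 bp on the ChIP library, and counted with Python 3.11.15, numpy 2.4.6 and scipy 1.17.1. Site reads lie within 100 bp of a position. Overlapping windows were counted once in sums. Ratio intervals are exact conditional binomial and share intervals exact Clopper-Pearson. No test was run. The counting was tested on simulated reads with known ratios.

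Groups named were the 10 with the greatest excess, the 5 each with the most sites, most sites per kb, greatest length and last ranks, and the one of middle rank. The members and lists were chosen with earlier results of these data known. Alternatives were the joining distance, input limit, heights, read repeats, scale and bins.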

Additional observations from a re-analysis of the deposited data

How the results depend on the processing

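The number of dense groups followed the rule closely. It was 296 with a joining distance of 5 kb, 1271 with 25 kb and 277 with sites of height 30 or more alone, against 757. With an input limit of 500 reads it was 751, with no limit 764, and with sites within 600 bp counted as 1 it was 523. The median share of the strongest site was 34.8% with 1 read per position and strand, 43.4% at 5 kb and 37.3% at 25 kb, against 40.6%. Counts of 1 read per position and strand have a ceiling in each window, which lowers strong sites most. Between sites of dense groups and beside single sites, the ratios of 0.987 and 0.936 became 0.968 and 0.926 at 2 kb or more from sites, 0.997 and 0.948 with 1 read per position and strand, 0.940 and 0.891 with input scaled by library totals, and 0.973 and 0.923 with 5′ ends not moved. They became 0.877 and 0.884 without bins of 10 or more distinct ChIP reads, and 0.945 and 0.907 without those that also had 4 times the scaled input. The order of the 2 turned in the former of these settings, with intervals that overlapped, and in none of the others listed here. Both settings take out bins for their high ChIP reads, which lowers a ratio by construction. Single sites weighted by height gave 0.940, by input near groups 0.872 and by regional input 0.904. The last 2, the 4-fold definition and the setting without the 10 leading groups (0.985 between sites) were chosen after seeing the data. The median ratio of the 25 named groups was 2.96, and 2.19 with 1 read per position and strand and 2.82 with library totals. None of the 25 changed sides of 1 where its interval excluded 1. Of the 10 leading groups, 8 stayed among the 10 with 1 read per position and strand and 10 with library totals, and of the leading 76, 57 and 75 did. No paired analysis was possible because each group had 1 library. Depth limits single spaces between sites, which held a median of 105 input reads.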
